A study of Rattus norvegicus with 84 samples.

Results

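The 10 genes described here encode neuronal microtubule proteins and neurofilaments: the microtubule-associated proteins Map1a, Map1b, Map2, Mapt (tau), Map4 and Map6, the neuronal tubulin Tubb3, and the light, medium and heavy neurofilament subunits Nefl, Nefm and Nefh. They were taken by symbol from the deposited table of mRNA counts, in which all 10 were found among 18782 annotated genes. mRNA was sequenced from extracellular vesicles (EVs), membrane particles that cells release, isolated from the ipsilateral brain hemisphere and from the plasma (in some labels serum) of 21 wild-type male Sprague-Dawley rats of 8 to 12 weeks, in 7 groups of 3 rats. Healthy rats had no stroke. The control and hNSCs groups had a 90 min occlusion of the right middle cerebral artery and were taken 4, 10 and 31 days later. On day 3, control rats received saline and hNSCs rats received 200000 human neural stem cells through the common carotid artery. The rats of different days are different animals, and a hemisphere holds lesioned and spared tissue together.

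Microtubules are hollow polymers of alpha- and beta-tubulin that stiffen neurites and carry motor traffic. Microtubule-associated proteins bind and stabilize them, with Map2 known from dendrites, tau from axons, Map1b from growing axons and Map1a from mature neurons, whereas Map4 is the form of many non-neuronal cells and Map6 is known for cold-stable microtubules. Neurofilaments are the intermediate filaments of large axons, built on a core of the light subunit with the medium and heavy subunits as side-arm bearing partners, and light-chain protein in blood is in use as a measure of axonal injury. The values here are of mRNA in EVs and not of protein.

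The brain libraries held 13221461 to 37651652 counts, of which 3.18% to 51.9% fell on annotated genes. In plasma these figures were 11878367 to 49824782 counts and 45.1% to 75.6%. The 10 genes took 0.570% to 2.00% of the annotated counts of a brain library and 0.0292% to 0.0845% of those of a plasma library. In the 6 brain libraries of day 31 the annotated share was 29.9% to 51.9%, and in the other 15 it was 3.18% to 25.3%, so it moved with the day. FPKM (fragments scaled by transcript length and by the size of the library) follows that share, and CPM (counts scaled to the annotated counts of a library by edgeR's TMM factors) does not. Levels of different genes are therefore compared in FPKM within a library and groups are compared in CPM. The library hNSCs day 10 replicate 3 was the shallowest, with 569136 annotated counts.

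Among the 10 genes, Map1b and Map1a followed the mean profile of the set most closely across the brain libraries, and the sequences at their starts are shown for that reason. Each is 250 bases before and 50 bases after the annotated gene start from RefSeq (build GRCr8, a later build than the Rnor_6.0 of the counts), 5′ to 3′ on the strand of the gene. Capitals mark, on either strand, the TATA box motif TATAAA, the CAAT box motif CCAAT and the GC box motif GGGCGG. These motifs do not contain one another.
Map1a (chr3:128722445-128722744, plus strand): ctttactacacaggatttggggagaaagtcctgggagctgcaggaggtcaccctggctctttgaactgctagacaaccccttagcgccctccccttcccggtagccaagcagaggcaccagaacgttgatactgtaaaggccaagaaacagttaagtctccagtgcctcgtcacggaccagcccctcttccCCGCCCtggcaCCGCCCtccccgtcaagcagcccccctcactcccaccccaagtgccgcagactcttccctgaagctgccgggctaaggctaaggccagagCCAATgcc
Map1b (chr2:32644422-32644721, minus strand): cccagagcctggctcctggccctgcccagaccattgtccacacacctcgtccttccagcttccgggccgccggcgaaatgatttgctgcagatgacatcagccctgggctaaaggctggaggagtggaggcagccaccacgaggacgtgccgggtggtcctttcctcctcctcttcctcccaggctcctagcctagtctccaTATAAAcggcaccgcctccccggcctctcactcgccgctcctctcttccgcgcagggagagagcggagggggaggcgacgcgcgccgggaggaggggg
Of 33469 promoters of this length, 14.2% held TATAAA, 37.5% CCAAT and 33.1% GGGCGG. The Map1b window had 1 TATAAA and neither other motif, while the Map1a window had 2 GGGCGG, 1 CCAAT and no TATAAA. G and C made up 66.7% of the Map1b window and 60.3% of the Map1a window, against a median of 51.7%. A match of letters is a description of these windows and not a binding site.

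In healthy brain EVs, Nefl, Nefm, Map1a and Map1b had the highest mean levels of the 10 per length, while Nefh lay below Map2. Mean levels were 21.3 FPKM for Nefl (SD 10.3, n = 3), 12.8 for Nefm (SD 6.35), 12.2 for Map1a (SD 6.78), 10.0 for Map1b (SD 5.94) and 7.98 for Map2 (SD 4.60). Then came Nefh at 3.25 FPKM (SD 1.24), Mapt at 2.99 (SD 1.63), Tubb3 at 2.64 (SD 1.55), Map6 at 1.30 (SD 0.777) and Map4 at 1.09 (SD 0.775). The annotated share of the 3 libraries ran from 7.11% to 20.9%, and the order of the genes was compared within each library. The light subunit exceeded the medium one by 0.75 on the log2 FPKM scale (SD 0.08 over 3 libraries), and Map1a exceeded Map1b by 0.34 (SD 0.24) and Map1b Map2 by 0.31 (SD 0.09). Nefm exceeded Map1a by 0.10 (SD 0.10) and Map6 exceeded Map4 by 0.36 (SD 0.47), each in 3 of 3 libraries, differences about as large as or smaller than their SD. Nefh exceeded Mapt by 0.18 (SD 0.38), in 2 of 3 libraries. Over all 21 brain libraries Nefl had the highest FPKM of the 10 genes in 17 and Map1a in the other 4.

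The ratio of count to FPKM gives the length that the authors' tool assigned to a gene. Relative to Map1b this was the same in every brain library for Nefl (0.171) and nearly so for Nefm (0.258 to 0.259) and Nefh (0.324 to 0.325). For Map4 it ran from 0.475 to 0.740, which means that the assigned transcripts of Map4 differed between libraries and that its FPKM and CPM do not move in step. Smaller variation was found for Map2 (0.714 to 0.857), Mapt (0.448 to 0.524) and Map1a (0.855 to 0.926). The FPKM ratios of Map1b to Map1a and of Tubb3 to Map2 below include this variation. In the healthy and control day 4 groups the relative length of Map4 was 0.541 to 0.698 and 0.618 to 0.691, ranges that overlap.

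**Figure D1:**
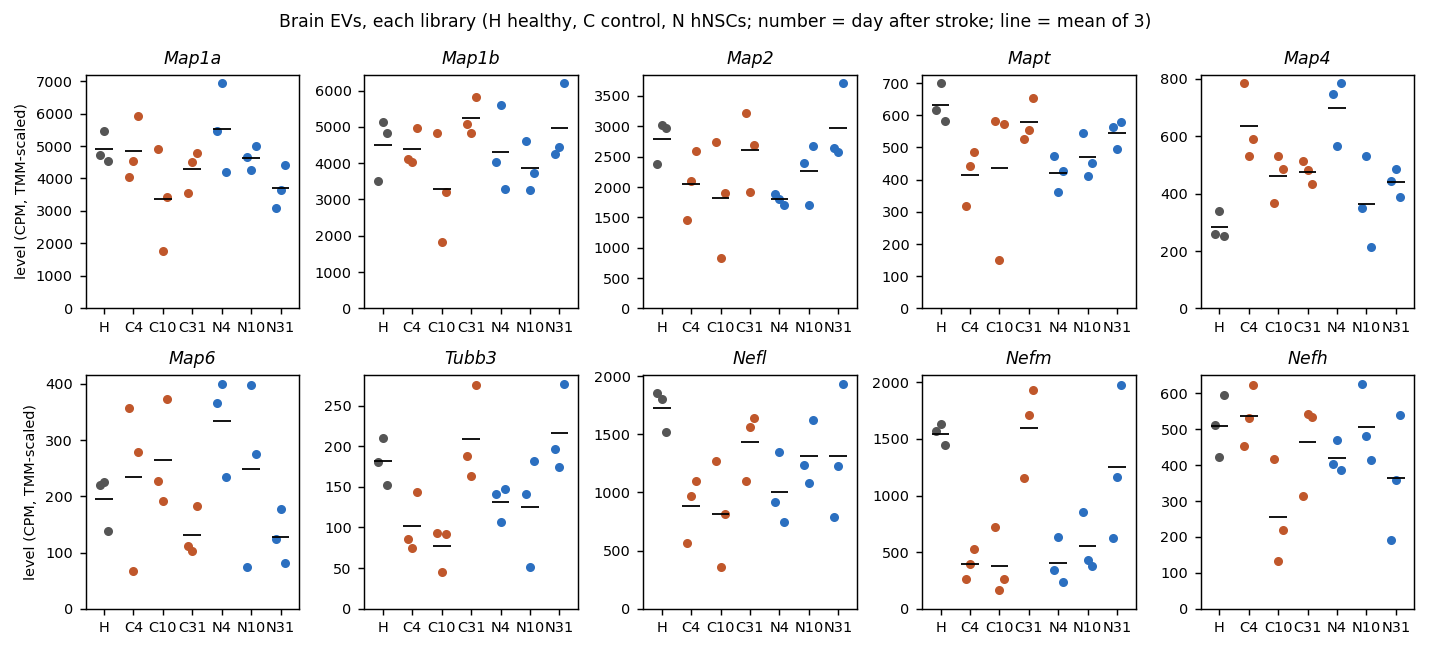
Level of each of the 10 genes in CPM (linear axis from 0) in the 21 brain libraries, 3 points per group with a line at the mean, for healthy rats (H) and control (C) and hNSCs (N) rats at day 4, 10 and 31. Nefm lies between 1443 and 1628 CPM in healthy rats and between 260 and 529 CPM in control rats at day 4, and Map4 lies higher at day 4 than in healthy rats.

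The first comparison asks how these mRNAs in brain EVs stood after stroke without cells. At day 4, the medium neurofilament mRNA fell and the Map4 mRNA rose, while the other 8 genes did not pass the test. Nefm was at 1566, 1628 and 1443 CPM in the 3 healthy rats and at 260, 392 and 529 CPM in the 3 control rats. The groups lay far apart, and edgeR gave a log2 fold change of −1.97 (SE 0.48, adjusted p = 0.0498). Map4 was at 260, 339 and 252 CPM in healthy rats and at 786, 531 and 592 CPM at day 4, again without overlap. Its log2 fold change was 1.16 (SE 0.28, adjusted p = 0.0463). A call here is a Benjamini-Hochberg adjusted p under 0.05 over all 14515 genes tested with a change over 1.5-fold, and 0.861% of the genes tested were called. Both calls sat at the threshold. Leaving out any of the 6 libraries ended both of them, with adjusted p of 0.0680 to 0.297 for Map4 and 0.0704 to 0.301 for Nefm, although the log2 fold changes stayed between 0.98 and 1.28 and between −2.25 and −1.75. With DESeq2, which called 5.83% of all genes, the adjusted p values were 0.0023 for Map4 and 0.0010 for Nefm. With the replicate number as a block, the adjusted p of Nefm was 0.0569.

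The light and heavy neurofilament mRNAs did not pass the test at day 4. Nefl was at 1852, 1799 and 1523 CPM in healthy rats and at 564, 971 and 1102 CPM at day 4. All 3 control rats lay below all healthy rats, but the log2 fold change of −0.97 (SE 0.37) had an adjusted p of 0.202. Nefh was at 512, 424 and 595 CPM in healthy rats and 454, 532 and 625 CPM in control rats. These values interleave, and the log2 fold change was 0.07 (SE 0.36, adjusted p = 0.992). Among the microtubule genes, Tubb3 was at 181, 210 and 152 CPM and then at 85.8, 75.3 and 144 CPM, with a log2 fold change of −0.83 (SE 0.40, adjusted p = 0.326). Mapt had a change of −0.61 (SE 0.33) and Map2 one of −0.45 (SE 0.31), neither past the test. Map1a and Map1b stayed within 0.04 of their healthy mean on the log2 scale (−0.02 and −0.04, SE 0.27 each). Map6 varied widely between rats, with 357, 67.3 and 279 CPM at day 4. At an unadjusted p under 0.05 there were 4 of the 10 genes, against 14.8% of all genes tested. The median log2 fold change of the 10 was −0.24 and that of all genes tested 0.05.

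In the same libraries, summed levels of other neuronal genes were lower and those of glial and vascular genes higher, for astrocytes almost wholly through Gfap. The summed level of 6 other neuronal genes (Snap25, Syt1, Syp, Rbfox3, Eno2 and Stmn2) was 2153 to 3150 CPM in healthy rats and 908 to 1632 CPM at day 4, and Syp, a synaptic vesicle protein, was the 1 of them that passed the test (log2 fold change −2.44, SE 0.47, edgeR adjusted p = 0.0155). The sum of 6 astrocyte genes was 1156 to 1246 CPM and then 3242 to 3576 CPM. Gfap, an astrocyte gene, was by itself at 504 to 695 CPM and then 2715 to 2865 CPM. In group means the astrocyte sum went from 1190 to 3425 CPM and Gfap alone from 590 to 2797 CPM. The rise of the sum was thus almost wholly that of Gfap, and the other astrocyte genes together changed little. The sum of 7 microglia genes was 55.4 to 76.9 CPM and then 275 to 539 CPM, and that of 6 oligodendrocyte genes 2618 to 3058 CPM and then 3891 to 6337 CPM. The sum of 6 vascular genes was 121 to 275 CPM and then 387 to 643 CPM. No gene of these 5 lists was at 0 in either group. Their part in the neurofilament and Map4 values was not tested. In bulk EV RNA, fewer vesicles from a cell type and less of an mRNA in each vesicle cannot be told apart.

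At day 10 no gene of the 10 was called (5 at an unadjusted p under 0.05). The 3 neurofilament genes, Tubb3 and Mapt lay below each healthy rat, Nefh and Mapt by little. The share of all genes that separate in this way was not counted. With 3 rats against 3 the smallest two-sided exact permutation p is 0.1, so such a separation is a description and not a test. Among all genes 0.572% were called and 12.7% had an unadjusted p under 0.05. Nefm was at 720, 164 and 259 CPM, all below the healthy rats, with a log2 fold change of −2.02 (SE 0.48) and an edgeR adjusted p of 0.0553. DESeq2 called it, at an adjusted p of 0.0009 and with 4.22% of all genes called. Nefl was at 1267, 357 and 814 CPM (log2 fold change −1.09, SE 0.37, adjusted p = 0.224). Nefh was at 418, 133 and 220 CPM, below each healthy rat (log2 fold change −0.99, SE 0.36, adjusted p = 0.259), though by little between 418 and 424 CPM. Mapt reached 582.07 CPM, just below the healthy minimum of 582.41 CPM. Tubb3 was at 93.3, 45.7 and 91.8 CPM, also below each healthy rat (log2 fold change −1.24, SE 0.40, adjusted p = 0.199). Map4 was at 366, 532 and 485 CPM, above each healthy rat (log2 fold change 0.70, SE 0.28, adjusted p = 0.283).

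The 3 control rats of day 10 were unlike one another. Replicate 2 had the lowest level of its group in 9 of the 10 genes and the highest in Map4, and replicate 1 had the highest in 8 of them. In replicate 2 the oligodendrocyte genes summed to 12499.5 CPM and the microglia genes to 1271 CPM, against 2861 and 147 CPM in replicate 1, while the other neuronal genes summed to 667 CPM against 2241 CPM. The part of these differences in the levels of the 10 genes was not tested. Without replicate 1, edgeR called the 3 neurofilament genes at day 10, with log2 fold changes of −1.55 for Nefl, −2.86 for Nefm and −1.53 for Nefh, and called Map4 and Nefm over all days together. Without replicate 2 the day 10 values were −0.72 for Nefl (adjusted p = 0.694), −1.65 for Nefm (adjusted p = 0.443) and −0.67 for Nefh (adjusted p = 0.744).

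At day 31 the neurofilament levels overlapped those of healthy rats. Nefm was at 1153, 1709 and 1935 CPM, overlapping the healthy rats, with a log2 fold change of 0.05 (SE 0.46, adjusted p = 1). Nefl was at 1096, 1558 and 1637 CPM and Tubb3 at 188, 163 and 275 CPM, and both overlapped the healthy group. Map4 was the 1 gene with an unadjusted p under 0.05, at 515, 481 and 434 CPM and above each healthy rat (log2 fold change 0.75, SE 0.28, adjusted p = 0.550). None of the 10 was called, as against 0.00689% of all genes, and 7.14% of all genes had an unadjusted p under 0.05. The median log2 fold change of all genes was 0.24 here, so levels are read relative to that shift, and the median of the 10 was −0.12, with 4 of the 10 above 0. On the FPKM scale, which follows the annotated share of 30.3% to 43.0% at day 31 against 7.11% to 20.9% in healthy rats, limma on log2(FPKM + 1) called all 10 genes higher at day 31. It called 57.0% of all genes, in the same direction but for 1.

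Day 31 was also set against day 4 directly. Nefm was higher at day 31 by 2.02 on the log2 scale (SE 0.48) with an edgeR adjusted p of 0.0837, and DESeq2 called it (adjusted p = 0.0019) among 1.68% of all genes. Tubb3 was higher by 1.04 (SE 0.40, adjusted p = 0.300) and Nefl by 0.70 (SE 0.37, adjusted p = 0.628), whereas Nefh differed by −0.21 (SE 0.36). None of the 10 was called by edgeR, where 0.248% of all genes were, and 2 had an unadjusted p under 0.05, against 9.50% of all genes. Over the 3 days, Nefm was at −1.31 against healthy rats (SE 0.36, adjusted p = 0.101) and Map4 at 0.87 (SE 0.24, adjusted p = 0.104). Again none was called, with 0.186% of all genes called, and 3 of 10 against 12.3% of all genes had an unadjusted p under 0.05. These comparisons share the healthy or control libraries and are not independent of one another.

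**Figure D2:**
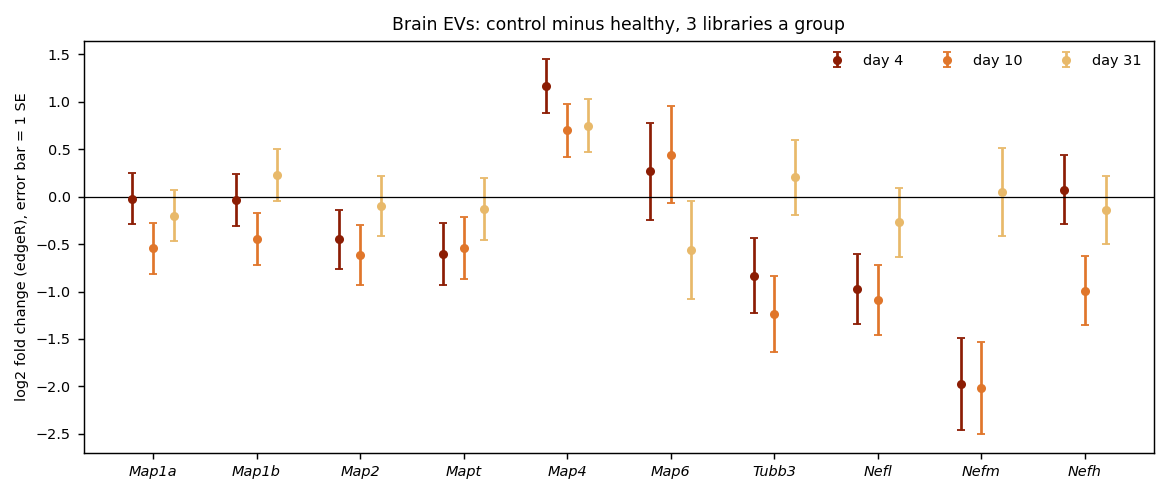
Log2 fold change of control against healthy brain EVs (edgeR) at day 4, 10 and 31 for each gene, with error bars of 1 SE. Nefm is near −2 at day 4 and 10 (−1.97 and −2.02) and near 0 at day 31 (0.05), and Map4 is above 0 on each day (1.16, 0.70 and 0.75).

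Ratios of 2 genes within a library do not depend on the scaling of that library. The FPKM ratio of Nefm to Nefl was 0.560, 0.599 and 0.627 in healthy rats. It was 0.304, 0.267 and 0.318 in control rats at day 4, 0.376, 0.303 and 0.210 at day 10, and 0.696, 0.726 and 0.782 at day 31. The medium subunit was therefore low relative to the light one in each of the 6 control rats of days 4 and 10, and above each healthy rat on day 31. The mean over the 9 control rats, whose days lay on both sides of the healthy group, differed from the 3 healthy rats by −0.58 on the log2 scale. It did not pass the two-sided exact permutation test (p = 0.182 over 220 arrangements, 0.402 adjusted over 8 tests). A single day has 3 rats against 3, for which the smallest two-sided exact p is 0.1, and no such p is given.

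The ratio of Nefh to Nefl moved the other way at day 4. It was 0.146, 0.124 and 0.206 in healthy rats and 0.424, 0.289 and 0.299 at day 4, then 0.174, 0.196 and 0.142 at day 10 and 0.151, 0.184 and 0.172 at day 31. The day 4 values were above all 9 others of these groups. Over all days the difference was 0.45 (exact permutation p = 0.223, adjusted 0.402). The ratio of Map1b, a protein of growing axons, to Map1a was 0.662, 0.815 and 0.919 in healthy rats and 1.24, 0.927 and 1.04 in control rats at day 31, so that it was higher at day 31 in each rat, although by little between 0.919 and 0.927. Over all days the difference was 0.19 (exact permutation p = 0.264, adjusted 0.402). The ratio of Tubb3 to Map2 differed by −0.17 (exact permutation p = 0.600, adjusted 0.600), with 0.399, 0.345 and 0.278 in healthy rats and values of 0.180 to 0.502 in control rats.

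**Figure D3:**
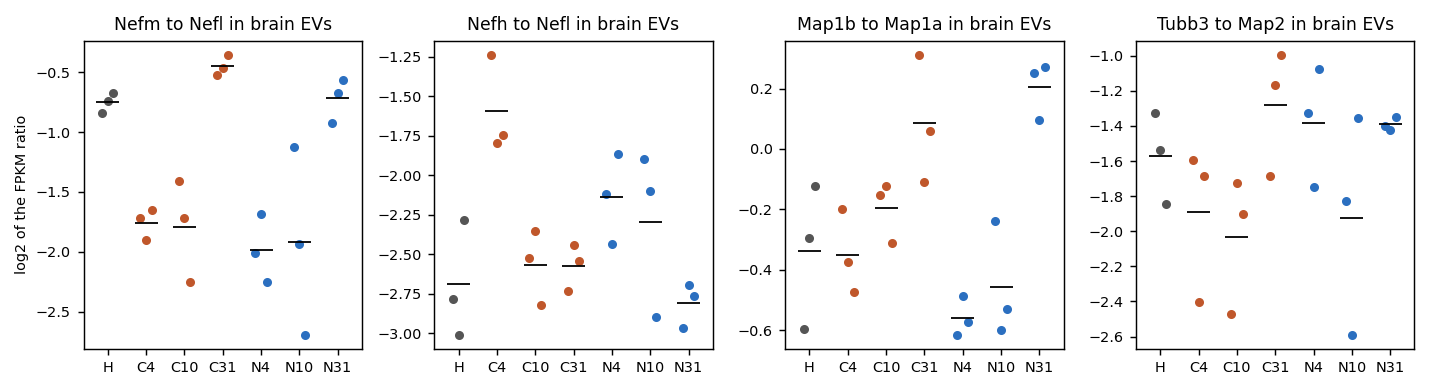
Log2 of the FPKM ratio of each pair of genes in the 21 brain libraries, 3 points per group with a line at the mean, for healthy (H), control (C) and hNSCs (N) rats at each day. The ratio of Nefm to Nefl has a mean of −0.75 in healthy rats, −1.76 and −1.79 in control rats at day 4 and 10, and −0.45 at day 31.

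The genes that work with these proteins were taken from a list of 54, all of which were tested in brain. At day 4, 3 rose and 1 fell, with 0.861% of all genes called. Those that rose were the intermediate filament genes Vim (log2 fold change 4.19, SE 0.69, edgeR adjusted p = 0.0110) and Gfap (2.25, SE 0.36, adjusted p = 0.0110) and the microtubule-binding gene Map7d1 (1.01, SE 0.24, adjusted p = 0.0440). Stmn3, a stathmin that takes tubulin out of microtubules in neurons, fell by 2.07 (SE 0.38, adjusted p = 0.0113), from 504, 637 and 457 CPM to 80.9, 140 and 160 CPM. In all, 17 of the 54 had an unadjusted p under 0.05, against 14.8% of all genes. The median log2 fold change of the list was −0.29. At day 10, Gfap was higher (1.99, SE 0.35, adjusted p = 0.0129) and Stmn3 lower (−1.90, SE 0.38, adjusted p = 0.0249). At day 31, Gfap was the 1 gene of the list that was called (2.50, SE 0.36, adjusted p = 0.0059), and it was also the 1 gene called of all genes tested.

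Between day 4 and day 31, 3 genes of the list rose and 1 fell in control rats, with 0.248% of all genes called. The beta-tubulin genes Tubb4a (1.91, SE 0.32, edgeR adjusted p = 0.0124) and Tubb2a (1.69, SE 0.37, adjusted p = 0.0498) were higher at day 31, as was Stmn3 (1.74, SE 0.37, adjusted p = 0.0480). Tubb4a was at 204, 258 and 246 CPM at day 4 and at 949, 790 and 927 CPM at day 31. Map7d1 was lower (−1.21, SE 0.24, adjusted p = 0.0294). The median log2 fold change of the 54 genes was 0.38, against 0.11 over all genes tested. Over the 3 days together, Gfap and Vim were higher than in healthy rats and Stmn3 was lower, and no other gene of the list was called.

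The next comparison asks whether hNSCs changed these mRNAs in brain EVs. None of the 10 genes was called on any day or over all days, and edgeR called 0% of all genes in each of these 4 comparisons. DESeq2 called none of the 10 either, with 1.52% of all genes called at day 4, 4.38% at day 10, 0% at day 31 and 2.36% over all days. At an unadjusted p under 0.05 there were 0 of 10 at day 4, 1 at day 10, 0 at day 31 and 0 over all days, against 7.53%, 13.4%, 0.0896% and 7.68% of all genes. The 1 gene was Nefh at day 10, at 627, 480 and 414 CPM in hNSCs rats and 418, 133 and 220 CPM in control rats, which overlap by 1 rat. Its log2 fold change was 0.98 (SE 0.36, adjusted p = 0.326), and leaving out each library gave 0.67 to 1.52. Nefm was at 344, 632 and 235 CPM in hNSCs rats at day 4, 855, 430 and 380 CPM at day 10 and 627, 1164 and 1976 CPM at day 31. The values overlapped the control rats on each day, with log2 fold changes of 0.04 (SE 0.46), 0.55 (SE 0.47) and −0.35 (SE 0.46).

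Most differences were small next to their errors. At day 4 they ran from −0.35 (Nefh, SE 0.36) to 0.51 (Map6, SE 0.51), and at day 31 from −0.35 (Nefh, SE 0.36) to 0.19 (Map2, SE 0.31). Map4 was at 748, 566 and 785 CPM in hNSCs rats at day 4, 349, 532 and 214 CPM at day 10 and 444, 486 and 387 CPM at day 31, with log2 fold changes of 0.14 (SE 0.28), −0.33 (SE 0.28) and −0.12 (SE 0.28). Over all days the range was −0.11 (Map4, SE 0.16) to 0.37 (Tubb3, SE 0.23). An error of this size does not show that the groups were alike. At day 10 the median log2 fold change was 0.39 for the 10 genes and −0.34 for all genes tested.

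Whether the effect of hNSCs differed between days was tested as an interaction. Of the 10 genes none was called in the 3 contrasts (0% of all genes). The lowest p belonged to Nefh, whose effect at day 10 exceeded that at day 4 by 1.34 (SE 0.51, adjusted p = 0.405) and whose effect at day 31 was lower than at day 10 by 1.33 (−1.33, SE 0.51, adjusted p = 0.785). At an unadjusted p under 0.05 there were 1, 0 and 1 of 10, against 8.63%, 4.23% and 6.23% of all genes, for day 10 against 4, day 31 against 4 and day 31 against 10. The 4 ratios did not pass the exact permutation test within days either. Their differences were −0.21 for Nefm to Nefl (p = 0.260), −0.17 for Nefh to Nefl (p = 0.302), −0.12 for Map1b to Map1a (p = 0.150) and 0.17 for Tubb3 to Map2 (p = 0.386), with adjusted exact p values of 0.402 to 0.441. The Nefm to Nefl ratio in hNSCs rats was 0.248, 0.311 and 0.210 at day 4, 0.459, 0.262 and 0.155 at day 10 and 0.527, 0.628 and 0.677 at day 31. It overlapped the control rats at days 4 and 10 and lay below each of them at day 31. At day 4, each hNSCs rat had a Nefh to Nefl ratio (0.231, 0.185 and 0.275) and a Map1b to Map1a ratio (0.653, 0.713 and 0.673) below each control rat (for the latter ratio 0.871, 0.771 and 0.720). These 2 ratios overlapped the control rats at days 10 and 31, and Tubb3 to Map2 did on every day. With 3 rats against 3 the smallest two-sided exact permutation p is 0.1, so these separations are no test. Of the 54 partner genes none was called on any day.

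**Figure D4:**
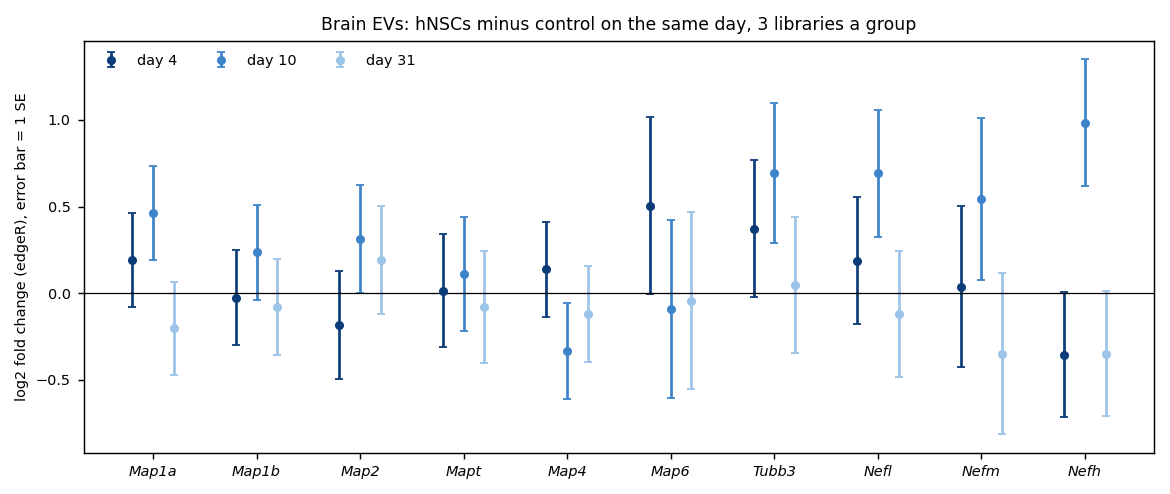
Log2 fold change of hNSCs against control brain EVs of the same day (edgeR) at day 4, 10 and 31 for each gene, with error bars of 1 SE. The values lie between −0.35 and 0.98, and the one farthest from 0 is that of Nefh at day 10 (0.98, SE 0.36).

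In plasma EVs, Map4 and Map1b were found in every library, and Tubb3 and the neurofilament genes in few. Map4 was found in 21 of 21 plasma libraries with 2464 to 18833 counts and a mean of 16.2 FPKM (SD 7.24, n = 21), and Map1b in 21 with 268 to 2588 counts and 1.37 FPKM (SD 0.492). Map1a was found in 20 libraries (0.309 FPKM, SD 0.231), Map6 in 18 (0.505 FPKM, SD 0.565) and Mapt in 16 (0.347 FPKM, SD 0.382). Map2 had counts in 10 libraries, Nefl and Nefm in 5 each, Tubb3 in 4 and Nefh in 2. The light subunit reached 10 counts in 1 library. A count of 0 allows up to 3 counts, or 0.0851 to 0.381 CPM depending on the library, and covers counting error only because these libraries held no molecular identifiers. Map4, the form of many cell types, had the highest FPKM of the 10 genes in every plasma library, and in plasma the name neuronal was not borne out for it.

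Neurofilament reads in plasma came mainly from 2 hNSCs libraries. The library hNSCs day 4 replicate 2 held 201 counts of Nefm and 227 of Nefh and none of Nefl or Tubb3. The library hNSCs day 10 replicate 3 held 32 counts of Nefl, 20 of Nefm, 15 of Nefh and 58 of Tubb3. Syt1, a synaptic vesicle gene, was at 0 in the former and 28 in the latter, and otherwise was counted in healthy replicate 2 alone, which held 16 counts of Syt1 and 19 of Nefm. Nefh was at 0 in every healthy and control plasma library. The library hNSCs day 4 replicate 2 held 82.0% of all plasma Nefm counts and 93.8% of all plasma Nefh counts.

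**Figure D5:**
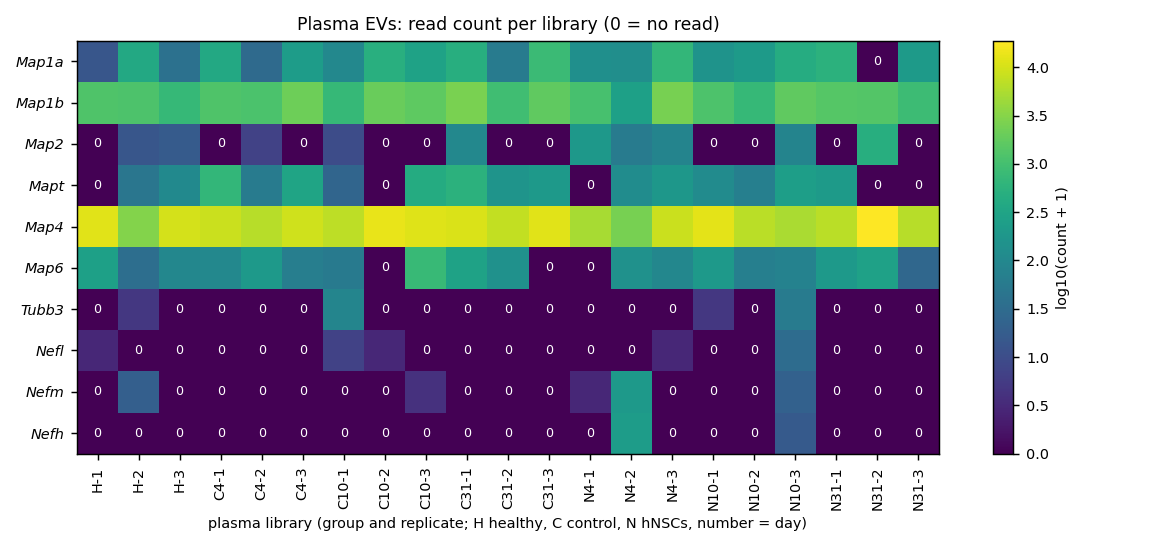
Read counts of the 10 genes in the 21 plasma libraries as log10(count + 1) in colour, with 0 printed where no read was counted, for healthy (H), control (C) and hNSCs (N) rats by day and replicate. Map4 and Map1b are counted in every library, and Nefh in 2 (227 and 15 counts).

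Of the 10 genes, 7 passed edgeR's filter on low counts in plasma (not Nefl, Nefh or Tubb3), and none of them was called in the plasma comparisons that follow. After stroke, control against healthy gave calls for 0.0679% of all 14720 genes tested at day 4 and for 0% at day 10, at day 31 and over all days. At an unadjusted p under 0.05 there were 0, 1, 0 and 1 of 7, against 5.86%, 5.60%, 4.75% and 9.61% of all genes. The genes were Map4 at day 10 (453, 703 and 553 CPM against 345, 260 and 421 CPM, log2 fold change 0.74, SE 0.34, adjusted p = 0.750) and Nefm over all days. Nefm had 19 counts in healthy replicate 2, 3 in control day 10 replicate 3 and none in the other healthy and control libraries. Leaving out each library gave it log2 fold changes of −6.57 to 1.08. Day 31 against day 4 had no such gene among the 7, with 0.170% of all genes called and 4.56% at an unadjusted p under 0.05. For hNSCs against control, calls were made for 0.00679% of all genes at day 4 and for 0% at day 10, at day 31 and over all days. At an unadjusted p under 0.05 there were 1, 0, 0 and 0 of 7, against 3.94%, 4.06%, 8.57% and 6.53%. The 1 gene was Nefm at day 4, through the library described above. DESeq2 called none of the 10 in these plasma comparisons. It called, of all genes, 6.16% at day 4, 8.25% at day 10, 4.48% at day 31 and 6.15% over all days after stroke, 6.45% for day 31 against day 4, and 5.93%, 7.76%, 11.3% and 9.48% for hNSCs at day 4, 10 and 31 and over all days. Map1b, the best counted after Map4, changed by 0.14 (SE 0.52), 0.43 (SE 0.52) and 0.15 (SE 0.52) after stroke and by 0.03, −0.03 and −0.27 (SE 0.52 each) with hNSCs.

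Healthy rats were also compared between the tissues, in 1 model of all 42 mRNA libraries. In this comparison 9 of the 10 genes were higher in brain EVs, and Map4 was not called. Of the 16945 genes tested, 22.0% were called, 11.3% as higher in brain. Nefl had 16111 counts over the 3 brain libraries and 2 over the 3 plasma libraries. Its ratio in TMM-scaled CPM was 43251, with a counting interval (exact Poisson, 95%) of 11973 to 357136. These ratios set the mean of the 3 brain libraries against the 3 plasma libraries pooled. Nefh had 4739 and 0 counts, at least 8531-fold higher in brain against a floor of 3 counts over the group. Tubb3 had 1742 and 4 counts, for a ratio of 2287 (interval 893 to 8394). Map2 had 27547 and 29 counts, for a ratio of 4899 (3411 to 7315). The intervals cover counting error only.

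The genes with counts in more plasma libraries were less far apart. By edgeR, Map1a was higher in brain by 8.32 on the log2 scale (SE 1.48, adjusted p = 7.65e-05), Mapt by 7.36 (SE 1.90, adjusted p = 0.0044), Map1b by 5.88 (SE 0.56, adjusted p = 3.25e-09) and Map6 by 4.84 (SE 1.51, adjusted p = 0.0187). With the rat as a block, the adjusted p of Map6 was 0.0713 and the other 8 calls stood. The Map6 call also ended in 5 of 6 fits that each left out 1 healthy library (adjusted p 0.0473 to 0.104, called without brain replicate 3). For Map4 the log2 difference was −0.73 (SE 0.36, adjusted p = 0.141), lower in brain. Leaving out each healthy library gave −1.49 to −0.91 and a call in 5 of 6 (not without plasma replicate 2). The median over all genes was −0.07 in the fit with all libraries and −0.73 to 0 in these fits, and its part in the Map4 value was not tested. In TMM-scaled CPM the ratio of brain to plasma was 0.575 for Map4 (251 and 436 CPM). Per length, Map4 was at 1.09 FPKM (SD 0.775, n = 3) in healthy brain and 16.7 FPKM (SD 8.48) in healthy plasma EVs. FPKM follows the annotated share, which was 7.11% to 20.9% in healthy brain and 58.3% to 71.6% in healthy plasma. The relative length of Map4 also differed, at 0.541 to 0.698 in healthy brain and 0.473 to 0.481 in healthy plasma. The FPKM values are therefore no measure of the difference between the tissues.

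Of the 54 partner genes, 24 were called higher in brain EVs and 7 higher in plasma EVs. Of all 16945 genes tested, 1909 (11.3%) were called higher in brain and 1827 higher in plasma. Of the 7 motor genes 6 were called higher in brain, among them the dynactin subunit Dctn1 (3.28, SE 0.38, edgeR adjusted p = 1.05e-07) and the dynein heavy chain Dync1h1 (2.70, SE 0.39, adjusted p = 3.91e-06). Ina, the alpha-internexin that co-assembles with neurofilaments, was higher by 13.44 (SE 1.08, adjusted p = 9.2e-09), with 2 counts in the plasma of healthy rats, and Stmn3 by 15.45 (SE 1.496, adjusted p = 1.36e-07). Because plasma counts are at or near 0, these fitted values depend on the prior count of the model and are no bounds. Of 11 tubulins 1 was higher in brain and 4 in plasma. All 6 other neuronal genes were called higher in brain, and all 5 platelet and all 5 red cell genes in plasma.

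Across the 21 brain libraries, the profile of the 10 genes was followed most closely by Myh10, a non-muscle myosin heavy chain, with a root mean square difference of 0.18 in log2 CPM from the mean of the 10 after centring each gene. Also among the nearest were Kif5c, a kinesin of neurons that is also on the partner list (0.21), Ttbk2, a tau tubulin kinase (0.21), and Rsrp1 (0.21). The median over 14515 genes was 1.96. Among the 10 genes themselves, Map1b was closest at 0.18, then Map1a (0.25), Mapt (0.25) and Map2 (0.27), while Map4 (0.70), Nefm (0.84) and Map6 (0.90) were farthest. Each of the 10 is part of that mean, so these values describe how alike they are and are not a test, and the SD of the mean profile was 0.36.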

How the data were processed

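mRNA in EVs from the ipsilateral hemisphere and plasma of 21 rats was measured in 42 of the 84 libraries of the series, and the 42 miRNA libraries were not analysed here. The authors trimmed reads, aligned them to Rnor_6.0 with Bowtie2 and deposited read counts per gene and FPKM values, the latter from StringTie and summed by the authors over the transcripts of a gene. Versions, the way counts were assigned and any use of strand are not given in the sources used here, so genes that overlap or share reads with a copy, such as the tubulins, are uncertain. The counts as deposited were used for 18782 annotated genes, and 7855 newly assembled genes were left out.

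For each tissue, 1 edgeR (4.0.16, R 4.3.3) quasi-likelihood model of 7 groups was fitted with TMM scaling after filterByExpr, and p-values were adjusted by Benjamini-Hochberg over all genes tested. A call needed an adjusted p under 0.05 and over 1.5-fold. Healthy brain and plasma were compared in a model of 14 groups. FPKM ratios were compared by two-sided exact permutation tests. Tests were checked on simulated data. DESeq2 1.42.0 and limma 3.58.1 were alternatives, beside other scalings and filters, leaving out each library and a replicate block. Promoters from RefSeq (GRCr8) were matched by symbol for 4 of the 10 genes.

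The genes and the lists of partners and markers were chosen with earlier results of these data known. All 10 genes are named, up to 4 called partner genes with the lowest p are named per comparison, and so are the 5 genes nearest to the mean profile, of which 1 is not reported here. Same-numbered samples of different groups are different rats. Their deviations correlated over 0.1 in every pair for 1 of 21 group pairs in brain (control and hNSCs at day 31, where the replicate block changed no call) and 0 of 21 in plasma, whereas brain and plasma of a rat share the animal. The labels put 3 separate rats in a group, and p-values measure the spread between them.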

Additional observations from a re-analysis of the deposited data

How the results depend on the processing

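No called result changed direction. Of 203 uncalled tests, the sign changed in 69 with limma on log2(FPKM + 1), 77 on log2(FPKM + 0.1) and 60 with the library size of all rows. Of the 10 genes, 2 were called at day 4 (control against healthy brain EVs). None was with the library size of all rows, without hemoglobin genes, with new genes kept or with limma on log2(FPKM + 1) or log2(FPKM + 0.1) (0 each), and 1, Map4, was with the replicate block (Nefm adjusted p = 0.0569, edgeR). At day 10 the count of 0 became 1 without TMM, without a filter, with a mean FPKM of at least 1 and with DESeq2. At day 31 it became 10 with limma at either pseudocount. Over all days it became 1 with a mean FPKM of at least 1 and with limma at either pseudocount, and 2 with DESeq2. For day 31 against day 4 it became 1 without a filter, with a mean FPKM of at least 1, with DESeq2 and with only the groups compared, 5 with limma on log2(FPKM + 1) and 3 on log2(FPKM + 0.1). Of all 14515 genes, 91 were called at day 10 without TMM and 613 with DESeq2. Over all days DESeq2 called 695 and limma on log2(FPKM + 1) 458. That limma setting called 8273 at day 31 and 4084 for day 31 against day 4. The cause of the changes between settings was not tested. Leaving out each library gave 0 to 0 calls at day 4, 0 to 3 at day 10, 0 to 2 over all days and 8 to 10 of 10 between healthy brain and plasma EVs. The highest counts at day 10 and over all days came without control day 10 replicate 1. For the ratios with hNSCs, leaving out each library gave −0.15 to −0.0798 for Map1b to Map1a and −0.34 to −0.0769 for Nefm to Nefl. Here 1 library each brought the exact permutation p to 0.0465 for Map1b to Map1a (−0.15, without control day 31 replicate 2) and to 0.0373 for Nefm to Nefl (−0.34, without hNSCs day 10 replicate 1). These p values are unadjusted and were picked from the fits that left out each of 18 libraries. With all libraries the adjusted exact permutation p was 0.402 for both ratios. Between healthy brain and plasma EVs, Map6 was not called with the library size of all rows, with limma, with the rat as a block (edgeR adjusted p = 0.0713) or in 5 of 6 fits without 1 healthy library. Map4 was called in 5 of these 6 fits and also with limma on log2(FPKM + 1). The block changed no other call. The shallowest brain library had 569136 annotated counts, and plasma counts of the neurofilament genes were at or near 0, which limits what their comparisons can show.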
